A study of Saccharomyces cerevisiae with 15 samples.

Results

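Cell wall mannoproteins and PIR proteins of budding yeast (Saccharomyces cerevisiae) were followed through 3 RNA polymerase II mutants. The set holds 10 of the 5449 genes measured, namely CWP1, CWP2, SED1, CCW12, CCW14 and HPF1, grouped here as mannoproteins of the GPI type, and the PIR genes PIR1, PIR3, HSP150 and CIS3. Members were found by their symbols in the platform's probe annotation. Each was read by 1 probe set, and none of these probe sets is marked as sharing probes with other sequences. The members were chosen by their expression in rpb2-10, where CWP1 and PIR3 were low, so all member values of rpb2-10 against its wild type are given as a description with no test.

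The samples are 15 one-colour Affymetrix arrays, 3 biological replicates for each of 5 strains grown to mid-log phase in YPAD, a rich medium. Mating type alpha is represented by rpb1-1, rpb1S751F and their wild type WT1B, and mating type a by rpb2-10 and its wild type WT1A. All 5 strains share the W303 background with leu2-3,112, ura3-1, trp1-1, his3-11,15, ade2-1, can1-100 and RAD5. The rpb1 alleles change RPO21, which encodes the largest polymerase subunit, and rpb2-10 changes RPB2, which encodes the second largest. Each mutation was present in 1 strain, and the labels give no growth temperature.

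Values are log2 levels made with RMA, a method that quantile-normalizes arrays, so higher and lower mean relative to the other genes of the array. The median gene lay at 10.04 to 10.09 on the 9 alpha arrays and at 7.75 to 7.83 on the 6 a arrays, so the arrays appear to have been normalized as 2 sets. Each mutant was compared with its own wild type within its set, and where strains of both sets stand side by side the array's median was first taken off each level. All 7 a-specific marker genes were higher in both a strains than in all 3 alpha strains. Of 5 alpha-specific genes, 4 were lower in both a strains than in all alpha strains, the exception being SAG1. On the log2 scale, RPO21 was higher by 0.40 ± 0.08 (SE) in rpb1-1 and by 0.37 ± 0.08 in rpb1S751F than in WT1B, with n = 3 arrays per strain. In rpb2-10, RPB2 differed from WT1A by 0.004 ± 0.06. P-values measure the spread between these samples. Array probes do not show the mutant alleles themselves. In cultures, fewer cells with a transcript and less of it per cell cannot be told apart.

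As background, the yeast wall is a glucan mesh with an outer layer of mannoproteins. GPI-type proteins are made with a lipid anchor, which is cleaved so that the protein can be joined to glucan. PIR proteins (proteins with internal repeats) have no such anchor and are attached to glucan through their repeats. When the wall is weakened, the kinase Slt2 activates the transcription factor Rlm1, whose known targets include several PIR and GPI wall genes. PIR genes are also known for a peak of expression as cells leave mitosis.

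In rpb2-10 the members ran from a far lower CWP1, through nearly level values of CWP2, CCW14 and CIS3, to a higher HPF1. CWP1, a mannoprotein found at birth scars, had log2 levels of 4.70, 4.68 and 4.74 in rpb2-10, against 10.05, 9.98 and 10.33 in WT1A. The 3 rpb2-10 arrays lay far below the wild type and close together. The difference was −5.41 ± 0.09 (SE, n = 3), or 42.6-fold lower on the linear scale, and among the 5449 genes it was the second lowest, after that of HIS3 at −6.20. The CWP1 level was still above the 95th percentile of the probe sets of another species, which lay between 1.84 and 1.87 on these arrays. HIS3, at 1.835, 2.62 and 1.91 in rpb2-10, lay near that percentile, so the size of its fall is uncertain.

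Of the PIR genes, 3 were clearly lower in rpb2-10 and 1 was not. PIR3 had levels of 4.51, 4.47 and 5.07 in rpb2-10, against 7.82, 7.81 and 7.998 in WT1A. This difference of −3.19 ± 0.145 was the tenth lowest of all genes, and the arrays did not overlap. PIR1 had 9.06, 9.05 and 9.29 in rpb2-10, against 10.64, 10.67 and 10.64 in WT1A, a difference of −1.52 ± 0.07. HSP150, a heat-induced secreted PIR protein also known as PIR2, had 10.50, 10.49 and 10.65 in rpb2-10, against 11.75, 11.77 and 11.75 in WT1A, a difference of −1.21 ± 0.06. The groups of PIR1 and of HSP150 did not overlap either. CIS3, also known as PIR4, had 11.70, 11.67 and 11.67 in rpb2-10, against 11.72, 11.63 and 11.72 in WT1A, and these groups overlapped.

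Among the GPI-type members other than CWP1, the differences in rpb2-10 were under 1 on the log2 scale. SED1, a structural wall protein abundant in stationary phase, had 11.20, 11.31 and 11.19 in rpb2-10, against 11.80, 11.75 and 11.84 in WT1A, a difference of −0.56 ± 0.05. HPF1, a large mannoprotein known for reducing haze in wine, was the member that lay higher, with 8.64, 8.72 and 8.84 in rpb2-10, against 8.06, 8.10 and 8.21 in WT1A. The difference of HPF1 was 0.61 ± 0.07. CCW12, a major protein of the wall of growing cells, differed by −0.18 ± 0.04, CWP2 by −0.06 ± 0.05 and CCW14, a protein of the inner wall, by −0.06 ± 0.05. After centring of each array on its median, CWP2, CCW14 and CIS3 took the other sign, at 0.001, 0.006 and 0.06. In all, 9 of 10 members had rpb2-10 arrays outside the range of WT1A, 8 of them below it, and nothing is read from this count because the members were picked here. Over all genes 76.1% had such arrays, 42.0% below and 34.0% above. The 4 members lower by 1 or more stand beside 4.35% of all genes. The median difference was −0.37 over the members and −0.05 over all genes.

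**Figure D1:**
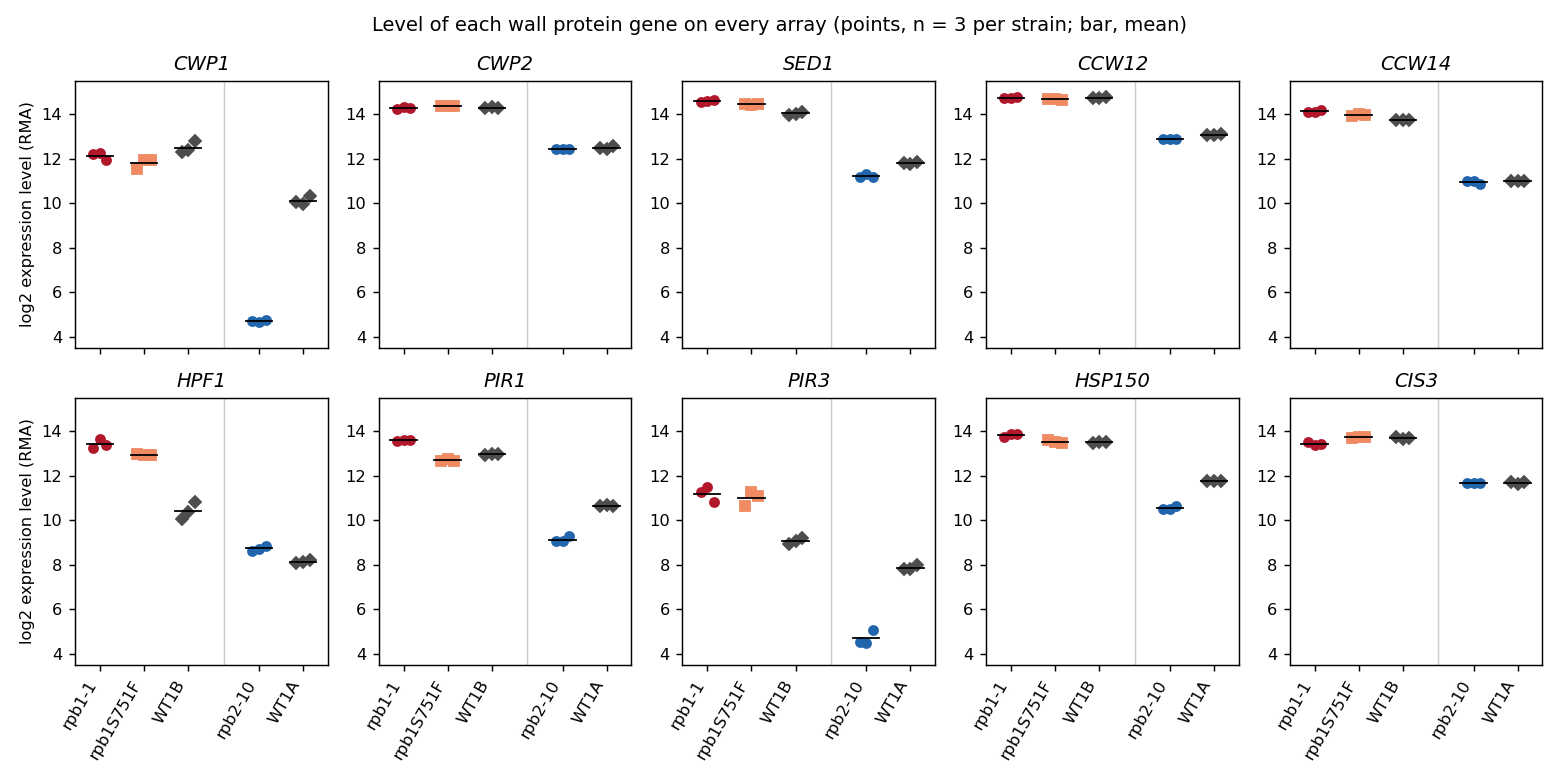
Log2 level (RMA) of each of the 10 genes on all 15 arrays, with rpb1-1, rpb1S751F and their wild type WT1B left of the grey line and rpb2-10 and its wild type WT1A right of it; points are arrays (n = 3 per strain) and bars are means. CWP1 and PIR3 lay at 5.07 or below on all rpb2-10 arrays, HPF1 and PIR3 lay above WT1B on all arrays of both rpb1 alleles, and the offset between the sides of the grey line reflects the 2 array sets.

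With a mutant largest subunit, in rpb1-1, the same genes were tested against WT1B. HPF1 and PIR3 rose most, PIR1, SED1, CCW14 and HSP150 rose by less than 1 on the log2 scale, and CIS3 fell slightly. HPF1 had levels of 13.26, 13.68 and 13.41 in rpb1-1, against 10.06, 10.35 and 10.84 in WT1B. The wild-type arrays of HPF1 had an SD of 0.39, yet all lay far below the mutant. HPF1 rose by 3.03 ± 0.18, or 8.18-fold on the linear scale (limma, adjusted p = 5.33e-06 over 5449 genes). PIR3 had 11.26, 11.49 and 10.82 in rpb1-1, against 8.94, 9.05 and 9.20 in WT1B. PIR3 rose by 2.12 ± 0.20, a 4.36-fold rise (limma, adjusted p = 4.30e-05).

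The smaller rises in rpb1-1 were also larger than the spread of the arrays. PIR1 had 13.55, 13.63 and 13.60 in rpb1-1, against 12.92, 12.96 and 13.00 in WT1B, a rise of 0.63 ± 0.06 (limma, adjusted p = 5.1e-05). SED1 had 14.54, 14.62 and 14.65 in rpb1-1, against 13.97, 14.04 and 14.12 in WT1B, a rise of 0.56 ± 0.07 (limma, adjusted p = 0.000156). CCW14 rose by 0.39 ± 0.06 (limma, adjusted p = 0.000757) and HSP150 by 0.33 ± 0.07 (limma, adjusted p = 0.00272). CIS3 fell by 0.25 ± 0.06, with 13.50, 13.41 and 13.44 in rpb1-1, against 13.73, 13.67 and 13.69 in WT1B (limma, adjusted p = 0.00694). PIR1, SED1, CCW14 and HSP150 had mutant arrays wholly above the wild type, and CIS3 wholly below it.

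CWP1, the member farthest below its wild type in rpb2-10, had 12.20, 12.27 and 11.96 in rpb1-1, against 12.31, 12.39 and 12.82 in WT1B. All mutant values of CWP1 lay below the wild type, but the difference of −0.36 ± 0.17 did not pass the test (limma, adjusted p = 0.0969). It passed when all 15 arrays shared 1 fit (limma, adjusted p = 0.0481), and its adjusted p ran up to 0.292 over the alternatives. CWP2 differed by −0.01 ± 0.06 and CCW12 by −0.01 ± 0.06 in rpb1-1, and their groups overlapped. CCW12 lay 0.19 to 0.28 below the highest value of its array on the alpha arrays SED1 0.30 to 0.98 below and CWP2 0.56 to 0.69 below, so little room remained for a higher reading of CCW12 or, in the rpb1 strains, of SED1. Of the 10 members 7 were called in rpb1-1, 6 higher and 1 lower, where 53.8% of all genes were called, 28.1% higher and 25.7% lower. Arrays did not overlap for 8 members, 6 above and 2 below the wild type, beside 63.2% of all genes, 32.2% above and 31.0% below. No member was lower by 1 or more, as were 6.07% of all genes. The members' median change was 0.36 and that of all genes −0.01.

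The rpb1S751F allele was compared with the same WT1B arrays, so both allele comparisons share their controls. HPF1 and PIR3 rose in this strain too, SED1 and CCW14 rose by less, and CWP1 and PIR1 fell. HPF1 had 12.97, 12.93 and 12.92 in rpb1S751F, against 10.06, 10.35 and 10.84 in WT1B, and rose by 2.52 ± 0.18, or 5.75-fold (limma, adjusted p = 1.51e-05). PIR3 had 10.64, 11.29 and 11.08 in rpb1S751F, against 8.94, 9.05 and 9.20 in WT1B, and rose by 1.94 ± 0.20, or 3.82-fold (limma, adjusted p = 8.64e-05). No mutant array of HPF1 or PIR3 reached down to the wild type.

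SED1 had 14.45, 14.44 and 14.49 in rpb1S751F, against 13.97, 14.04 and 14.12 in WT1B, a rise of 0.42 ± 0.07 (limma, adjusted p = 0.000877). CCW14 rose by 0.22 ± 0.06 (limma, adjusted p = 0.0141), and without rpb1S751F replicate 3 its adjusted p was 0.0501. CWP1 had 11.54, 11.93 and 11.96 in rpb1S751F, against 12.31, 12.39 and 12.82 in WT1B, and fell by 0.70 ± 0.17 (limma, adjusted p = 0.0068). PIR1 had 12.66, 12.75 and 12.69 in rpb1S751F, against 12.92, 12.96 and 13.00 in WT1B, and fell by 0.26 ± 0.06 (limma, adjusted p = 0.00623). The arrays of SED1, CCW14, CWP1 and PIR1 did not overlap the wild type.

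The other 4 members did not pass the test in rpb1S751F. HSP150 differed by 0.02 ± 0.07, CIS3 by 0.04 ± 0.06, CWP2 by 0.08 ± 0.06 and CCW12 by −0.08 ± 0.06. CCW12 passed with array weights (limma, adjusted p = 0.0472) and with a variance trend (limma, adjusted p = 0.00794). Of the 10 members 6 were called, 4 higher and 2 lower, where 54.6% of all genes were called, 31.1% higher and 23.5% lower. Arrays did not overlap for 8 members, 5 above and 3 below the wild type, beside 62.5% of all genes, 35.0% above and 27.5% below. No member was lower by 1 or more, as were 4.2% of all genes. The median change was 0.06 over the members and 0.04 over all genes, and the share of members called stood near that of all genes.

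**Figure D2:**
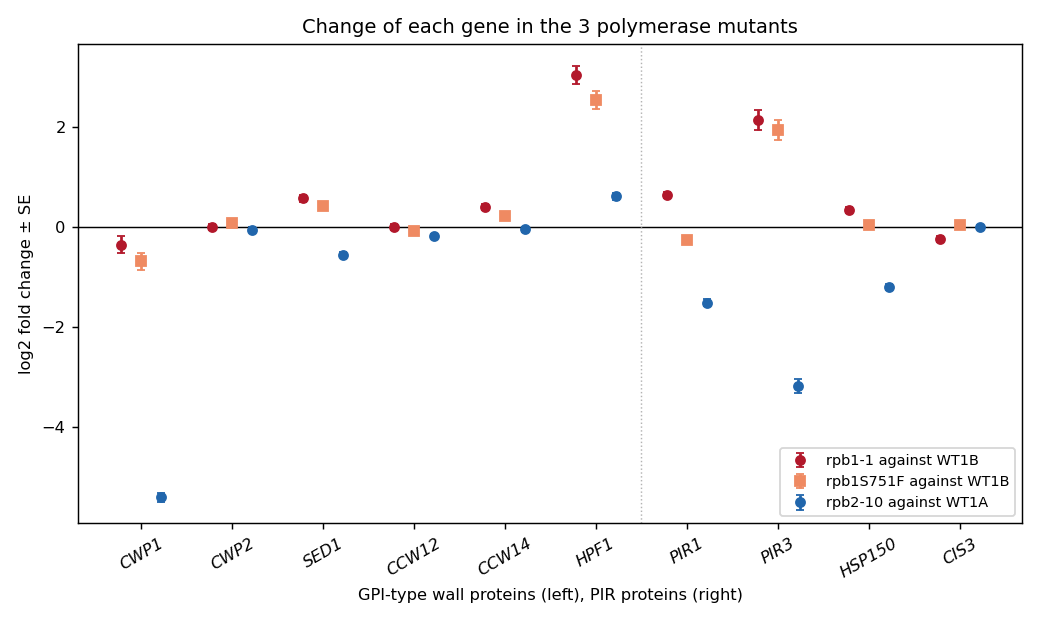
Log2 fold change of each gene (points, mutant minus its own wild type; bars, SE from the limma fit; n = 3 arrays per strain) in rpb1-1, rpb1S751F and rpb2-10, with GPI-type mannoproteins left and PIR genes right of the dotted line. PIR3 lay at 2.12, 1.94 and −3.19 in this order and HPF1 at 3.03, 2.52 and 0.61; the rpb2-10 values are a description.

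The alleles of RPO21 were then compared with each other, rpb1-1 against rpb1S751F. PIR1 gave the clearest difference, since it rose in one strain and fell in the other, both against WT1B. PIR1 was higher by 0.90 ± 0.06 in rpb1-1 than in rpb1S751F (limma, adjusted p = 8.07e-06), with 13.55 to 13.63 in rpb1-1, against 12.66 to 12.75 in rpb1S751F. HSP150 was higher by 0.31 ± 0.07 in rpb1-1 (limma, adjusted p = 0.00455) and CIS3 lower by 0.29 ± 0.06 (limma, adjusted p = 0.00381). HPF1 and CCW14 were higher by 0.51 ± 0.18 and 0.17 ± 0.06 (limma, adjusted p = 0.0471 and 0.0478). These last calls were fragile. That of CCW14 was lost without any 1 of the 9 arrays, and that of HPF1 without WT1B replicate 2, without rpb1-1 replicate 2 or 3, and without any of the rpb1S751F replicates. No difference passed for PIR3, at 0.19 ± 0.20 (limma, adjusted p = 0.473), or for CWP1, at 0.34 ± 0.17 (limma, adjusted p = 0.123). In all 5 of 10 members were called, 4 higher in rpb1-1 and 1 lower, where 48.0% of all genes were called, 22.8% higher and 25.3% lower. Arrays did not overlap for 9 members, 7 above and 2 below, beside 56.7% of all genes, 27.5% above and 29.2% below. No member was lower by 1 or more, as were 7.87% of all genes.

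Levels less the array median set the 5 strains side by side. The wild types belong to different array sets, so mating type and array set cannot be told apart, and no test was made across them. CWP1 lay at −3.04 ± 0.03 (SD, n = 3) in rpb2-10, below 1.75 ± 0.22 in rpb1S751F, 2.06 ± 0.16 in rpb1-1, 2.30 ± 0.20 in WT1A and 2.45 ± 0.29 in WT1B. The wild types did not differ in CWP1 beyond their spread. PIR3 was ordered rpb2-10 at −3.07 ± 0.33, WT1B at −0.99 ± 0.14, WT1A at 0.06 ± 0.12, rpb1S751F at 0.94 ± 0.31 and rpb1-1 at 1.10 ± 0.33. The rpb1 strains were within their spread of each other in PIR3, while WT1A lay above WT1B. HPF1 was ordered WT1A at 0.31 ± 0.10, WT1B at 0.37 ± 0.40, rpb2-10 at 0.98 ± 0.10, rpb1S751F at 2.88 ± 0.04 and rpb1-1 at 3.36 ± 0.21. PIR1 was ordered rpb2-10 at 1.38 ± 0.14, rpb1S751F at 2.64 ± 0.02, WT1A at 2.835 ± 0.03, WT1B at 2.91 ± 0.05 and rpb1-1 at 3.51 ± 0.03. SED1 lay at 3.98 ± 0.06 in WT1A and 3.99 ± 0.09 in WT1B, between 3.485 ± 0.06 in rpb2-10 and 4.40 ± 0.04 and 4.52 ± 0.06 in rpb1S751F and rpb1-1. Means over the strains ran from 2.796 in rpb2-10 to 3.94 in WT1A for HSP150, from 3.36 in rpb1-1 to 3.93 in rpb2-10 for CIS3, and from 3.185 in WT1A to 4.05 in rpb1-1 for CCW14. For CWP2 they ran from 4.20 in rpb1-1 to 4.69 in both a strains, and for CCW12 from 4.62 in rpb1S751F to 5.27 in WT1A. The highest gene lay at 14.93 to 14.97 on alpha arrays and at 13.36 to 13.43 on a arrays. The range thus reached farther above the median on a arrays. Taking off the median does not put the sets on one scale. For genes near the top, SED1, CWP2 and CCW12 among them, the values are only listed and no order across the sets is read.

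Members share a feature of position that the choice did not use. By the order of genes in the reference assembly R64, 6 of the 10 lie next to another member: CWP1 (YKL096W) next to CWP2 (YKL096W-A), PIR1 (YKL164C) next to PIR3 (YKL163W), and HSP150 (YJL159W) next to CIS3 (YJL158C). Some neighbours had like changes and some did not. In rpb2-10, whose values chose the members, CWP1 lay at −5.41 beside CWP2 at −0.06, and HSP150 at −1.21 beside CIS3 at −0.01. PIR1 and PIR3 were both lower in rpb2-10 and both rose in rpb1-1, but in rpb1S751F PIR1 fell by 0.26 while PIR3 rose by 1.94. Coding lengths of the members ran from 279 bases in CWP2 to 2904 in HPF1.

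Genes next to the members outside the set were read from the same order. YJU2, on the other side of CWP1, fell by 0.74 ± 0.11 in rpb2-10 (limma, adjusted p = 0.000383), with levels of 3.72 to 4.21 in rpb2-10, against 4.58 to 4.77 in WT1A. MCD4, beside PIR1, differed by 0.03 ± 0.07 in rpb2-10, and YKL162C, beside PIR3, fell by 0.22 ± 0.075 with overlapping arrays (limma, adjusted p = 0.025). In the rpb1 strains YKL162C rose as PIR3 did, by 0.855 ± 0.15 in rpb1-1 and by 1.07 ± 0.15 in rpb1S751F (limma, adjusted p = 0.00128 and 0.000409). MCD4 did not, and fell by 0.95 ± 0.11 in rpb1-1 (limma, adjusted p = 0.000147), where PIR1 and PIR3 rose. In rpb1S751F the levels of MCD4 were 10.25 to 10.50, against 10.60 to 10.98 in WT1B. KDX1, the second gene from PIR3 and a kinase-like protein of the wall stress pathway, fell by 2.54 ± 0.09 in rpb2-10 (limma, adjusted p = 9.28e-08). PIR5, a further PIR gene beside HSP150, rose by 0.88 ± 0.07 in rpb2-10 (limma, adjusted p = 6.88e-06). PIR5 fell by 0.61 ± 0.09 in rpb1-1 (limma, adjusted p = 0.000575) and rose by 0.31 ± 0.09 in rpb1S751F (limma, adjusted p = 0.0177). In rpb1-1 the change of PIR5 had the opposite sign to those of HSP150, PIR1 and PIR3, and the same sign as that of CIS3 (−0.25). In rpb2-10, whose values chose the members, no such contrast is read.

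Beside HPF1 (YOL155C) lies the small open reading frame YOL155W-A. YOL155W-A had levels of 5.32, 5.73 and 5.46 in rpb1-1, and 5.09, 5.66 and 5.74 in rpb1S751F, against 8.24, 8.42 and 8.83 in WT1B. It fell by 3.00 ± 0.21 in both rpb1 strains (limma, adjusted p = 9.20e-06 in rpb1-1 and 1.16e-05 in rpb1S751F), where HPF1 rose by 3.03 and 2.52. In rpb2-10 it fell by 0.35 ± 0.05 (limma, adjusted p = 0.000239), with 2.69 to 2.78 in rpb2-10, against 3.06 to 3.13 in WT1A. ZPS1, on the other side of HPF1, fell by 1.01 ± 0.07 in rpb2-10 (limma, adjusted p = 3.64e-06) and did not pass the test in rpb1-1 or rpb1S751F, at −0.36 ± 0.19 and 0.35 ± 0.19. Whether the array's probes for these neighbours can read each other's transcript was not tested.

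**Figure D3:**
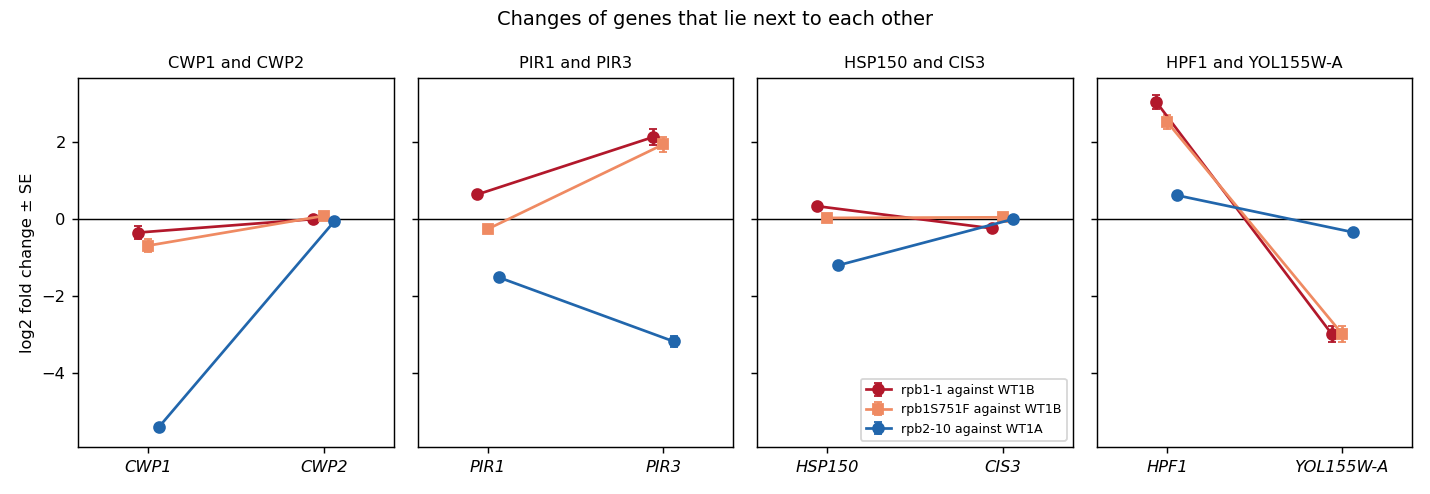
Log2 fold change (mutant minus its own wild type, ± SE, n = 3 arrays per strain) of adjacent genes, joined by a line for each mutant. CWP1 and CWP2 separate in rpb2-10 (−5.41 and −0.06), PIR1 and PIR3 separate in rpb1S751F (−0.26 and 1.94), and HPF1 and YOL155W-A run opposite in both rpb1 alleles.

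Other wall genes were described through 6 lists of related genes, 125 measured genes in all with the members left out. Of the wall stress genes of the Slt2 and Rlm1 pathway in rpb2-10, 10 of 15 measured genes were lower, 3 higher and a median of −0.67. SRL3, a gene of the wall stress list, fell by 2.26 ± 0.06 (limma, adjusted p = 2.55e-08). SLT2, the pathway's kinase, fell by 1.73 ± 0.05 (limma, adjusted p = 3.42e-08), with 8.03, 8.08 and 8.02 in rpb2-10, against 9.75, 9.83 and 9.73 in WT1A. RLM1, its transcription factor, fell by 0.945 ± 0.05 (limma, adjusted p = 9.41e-07). Over all genes in rpb2-10, 71.2% were called, 32.0% higher and 39.1% lower.

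In rpb1-1 9 of 15 wall stress genes were higher and 1, the chitin synthase CHS3, was lower (−0.38 ± 0.10), with a median of 0.49. Of all genes 28.1% rose and 25.7% fell in rpb1-1. PRM5, a gene induced by wall stress and pheromone, rose by 1.19 ± 0.12 (limma, adjusted p = 5.96e-05). GSC2, a stress-induced glucan synthase, rose by 1.395 ± 0.165 (limma, adjusted p = 0.000157), and SLT2 by 0.42 ± 0.09 (limma, adjusted p = 0.00315). RLM1 differed by 0.14 ± 0.08 in rpb1-1 and did not pass the test (limma, adjusted p = 0.157). In rpb1S751F 6 of 15 rose and 1 fell, with a median of 0.39, a smaller share called than the 54.6% of all genes. PRM5 rose by 1.17 ± 0.12 there and PIN3, a regulator of actin assembly, by 0.66 ± 0.07 (limma, adjusted p = 7.74e-05 and 0.00012), while RLM1 fell by 0.43 ± 0.08 (limma, adjusted p = 0.00158). The levels of SLT2 overlapped, at 11.42, 11.625 and 11.38 in rpb1S751F, against 11.27, 11.46 and 11.39 in WT1B. Members differed from each other beside this list in rpb1-1 and rpb1S751F. PIR3 lay at 2.12 and 1.94, PIR1 at 0.63 and −0.26, and CWP1 at −0.36 and −0.70. The members' rpb2-10 values are not set beside the list, because the members were chosen by values of that comparison. The part of the list's genes in the members' values was not tested.

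Genes that add mannose and GPI anchors to wall proteins were mostly called higher in rpb2-10 and mostly lower in rpb1-1. Over all genes 32.0% were called higher in rpb2-10 and 25.7% lower in rpb1-1. In rpb2-10 29 of 35 rose and 2 fell, with a median of 0.44, among them GPI2 (1.20 ± 0.07) of anchor synthesis and PMT5 (0.96 ± 0.06), an O-mannosyltransferase (limma, adjusted p = 1.71e-06 and 1.81e-06). In rpb1-1 22 fell, 12 did not pass the test and 1 rose, the mannosyltransferase OCH1 (0.47 ± 0.175, limma, adjusted p = 0.0484). The median was −0.38, and those that fell include MNT3 (−1.54 ± 0.08), a mannosyltransferase, and GPI12 (−1.03 ± 0.07) of anchor synthesis (limma, adjusted p = 2.52e-06 and 6.92e-06). In rpb1S751F 12 fell and 3 rose, with a median of −0.09, so fewer than the 54.6% of all genes were called. MNT3 fell by 0.85 ± 0.08 and PMT6, another O-mannosyltransferase, by 0.74 ± 0.14 (limma, adjusted p = 4.22e-05 and 0.00185). The 15 calls in rpb1S751F went to 9 without WT1B replicate 2 and to 23 with array weights. In rpb1-1 the median of the list had the opposite sign to that of the members (0.36). The members' median in rpb2-10 is not set beside the list, because the members were chosen by values of that comparison.

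Other GPI-type wall genes were mostly higher in rpb1S751F, where 22 of 37 rose and 4 fell with a median of 0.68. Of all genes 31.1% rose and 23.5% fell there. In rpb1-1 16 fell and 8 rose, with a median of −0.10, beside 25.7% and 28.1% of all genes. The direct comparison of rpb1-1 with rpb1S751F had 25 lower and 2 higher, beside 25.3% and 22.8% of all genes. TIR1 lay at −2.89 ± 0.14 and CRR1, a spore wall enzyme, at −2.28 ± 0.16 there (limma, adjusted p = 1.24e-06 and 8.85e-06). PLB2, a phospholipase, fell by 2.02 ± 0.09 in rpb1-1 and by 1.58 ± 0.09 in rpb1S751F (limma, adjusted p = 1.61e-06 and 5.36e-06). UTR2, which links chitin to glucan, fell by 1.57 ± 0.09 in rpb1S751F (limma, adjusted p = 5.25e-06). In rpb2-10 17 rose and 12 fell with a median of 0.11, beside 32.0% and 39.1% of all genes, so nothing is read from these counts. FIT2, an iron-related mannoprotein, rose by 4.07 ± 0.11 there (limma, adjusted p = 2.55e-08).

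Products of DAN and TIR genes are known to replace CWP1 and CWP2 in the wall of cells grown without oxygen. The list of 13 holds 12 DAN, TIR and PAU genes, TIP1 among them, and UPC2, a transcription factor of this group. DAN1, DAN4, TIP1, TIR1, TIR2, TIR3 and TIR4 are also in the list of other GPI-type genes, so the counts of these lists are not independent. In rpb1S751F 10 rose and 1, UPC2, fell (−0.545 ± 0.14), with a median of 1.01, and DAN4 lay at 2.02 ± 0.13 and TIP1 at 1.27 ± 0.11 (limma, adjusted p = 8.61e-06 and 3.43e-05). In rpb1-1 7 fell, UPC2 included, and 1 rose, with a median of −0.34. TIR1 fell by 1.87 ± 0.14 and TIP1 rose by 2.12 ± 0.11 there (limma, adjusted p = 1.4e-05 and 2.92e-06). Between the alleles 11 were lower in rpb1-1 and 1 was higher, with PAU3 at −1.94 ± 0.14 (limma, adjusted p = 1.01e-05). In rpb2-10, where CWP1 was low, 5 rose and 6 fell, UPC2 included, with a median of −0.05. TIR2 rose by 2.00 ± 0.05 and TIP1 by 1.71 ± 0.06 in rpb2-10 (limma, adjusted p = 1.75e-08 and 1.49e-07). The DAN, TIR and PAU genes are close copies of each other, and 3 of the 13 have probe sets marked as shared, so single values are uncertain. Over all genes 31.1% rose and 23.5% fell in rpb1S751F, 28.1% and 25.7% in rpb1-1, and 32.0% and 39.1% in rpb2-10. Between the alleles 25.3% of all genes were lower in rpb1-1 and 22.8% higher. Nothing is read from the counts of this list in rpb2-10.

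Glucan enzymes and chitin genes showed mixed directions. Of 27 glucan genes 8 rose and 11 fell in rpb1-1, 11 rose and 6 fell in rpb1S751F, and 11 rose and 8 fell in rpb2-10. Over all genes 28.1% rose and 25.7% fell in rpb1-1, 31.1% and 23.5% in rpb1S751F, and 32.0% and 39.1% in rpb2-10, so nothing is read from these counts or from those of the chitin genes. NCA3 rose by 2.72 ± 0.18 in rpb1-1 and the spore wall enzyme GAS4 by 1.75 ± 0.11 in rpb1S751F (limma, adjusted p = 7.97e-06 and 8.61e-06), while SCW10 and SIM1 rose by 0.98 ± 0.06 and 0.79 ± 0.05 in rpb2-10 (limma, adjusted p = 1.33e-06 and 1.63e-06). GAS4 lay at 3.72 to 3.915 in WT1B, below the 95th percentile of the other-species probe sets (4.03 to 4.20), so the size of its rise is uncertain. Of 15 chitin genes 5 rose and 4 fell in rpb1-1, 6 rose and 2 fell in rpb1S751F, and 6 rose and 7 fell in rpb2-10. CDA1, a chitin deacetylase of spores, fell by 2.57 ± 0.17 in rpb1-1 (limma, adjusted p = 8.36e-06). Its rpb1-1 levels of 3.31 to 3.47 lay below the 95th percentile of the other-species probe sets (4.09 to 4.14), so the size of the fall is uncertain. GFA1, the first enzyme of chitin precursor synthesis, rose by 0.54 ± 0.08 in rpb1-1 and by 0.49 ± 0.08 in rpb1S751F (limma, adjusted p = 0.000591 and 0.00108). In rpb2-10 SKT5, an activator of chitin synthase, fell by 0.93 ± 0.05 and GNA1, of precursor synthesis, rose by 0.86 ± 0.05 (limma, adjusted p = 1.35e-06 and 1.75e-06).

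**Figure D4:**
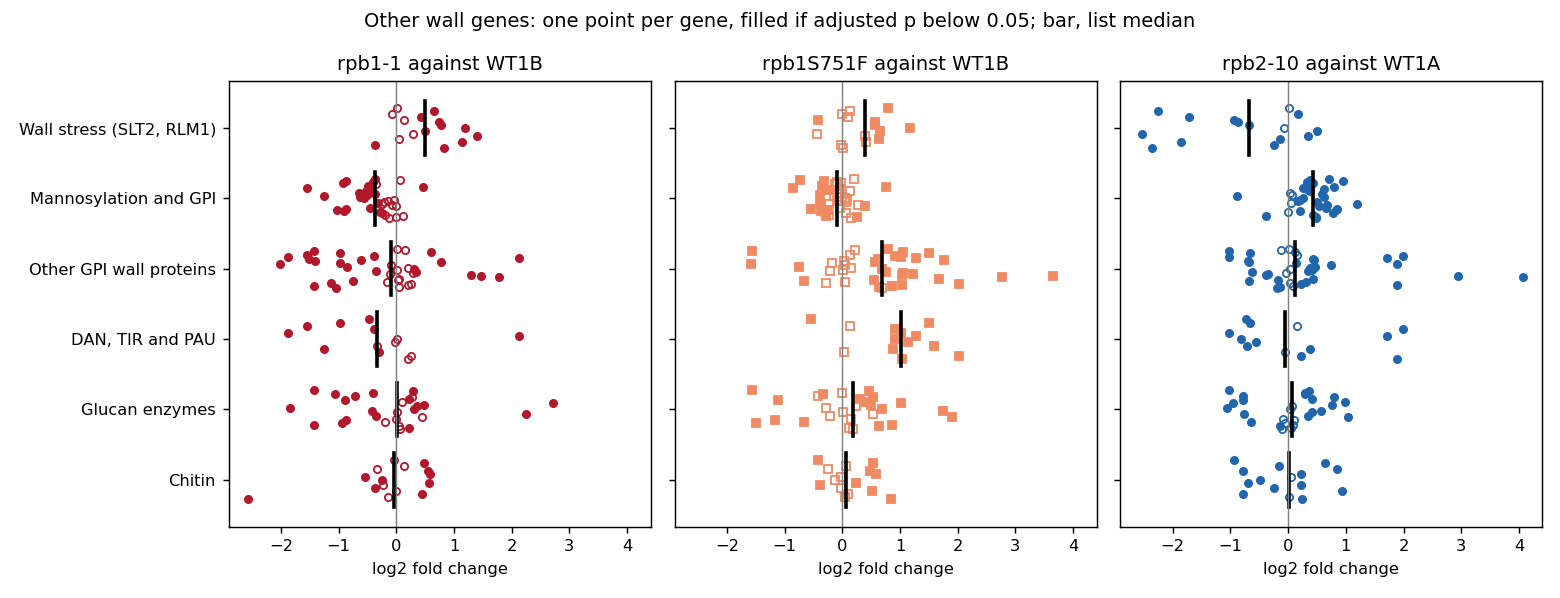
Log2 fold changes (mutant minus its own wild type) of the other wall genes by list, 1 point per gene, filled where limma's adjusted p was below 0.05, with bars at the list medians. The median of the wall stress list lies right of 0 in both rpb1 alleles (0.49 and 0.39) and left of it in rpb2-10 (−0.67), and that of the mannosylation and GPI list lies at −0.38 in rpb1-1 and 0.44 in rpb2-10, with single genes on either side.

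Genes with patterns most like CWP1, PIR3 and HPF1 were ranked by Pearson correlation over the 15 arrays, after subtraction of the mean of each array's own wild type. The arrays of a strain share their effect, so the correlations describe 5 groups more than 15 points. They include the rpb2-10 values by which the members were chosen, so the direction of the genes named in rpb2-10 follows from the ranking and is no result. For CWP1 they were RAD7, HIS3, PRM10, CMK2 and DIA1, with correlations of 0.977 to 0.986, and their changes in rpb2-10 lay between −1.45 for RAD7 and −6.20 for HIS3. For PIR3 they were PTP2, RTS3, AGX1, CYC1 and GFA1, at 0.986 to 0.991. PTP2, a phosphatase that acts on Slt2, had changes of 0.74, 0.56 and −0.87 in rpb1-1, rpb1S751F and rpb2-10, and RTS3 had 1.22, 0.93 and −1.70. For HPF1 they were QCR2, CMD1, SDH3, LCB5 and ATP1, at 0.987 to 0.995. QCR2, a subunit of the respiratory chain, had changes of 1.63, 1.32 and 0.30 in the same order, and LCB5 had 1.80, 1.72 and 0.29.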

How the data were processed

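The authors deposited log2 expression levels, 1 per probe set for each array. Per the submitters' processing notes RMA and limma were used, with no version. What limma was used for, and the genome build, are not given in the sources. Of 10928 probe sets, 5498 named 1 S. cerevisiae gene, and the brightest per gene left 5449 genes (names and gene order from assembly R64). Probe sets of another species gave a background level. A mean per group was fitted by lmFit and eBayes of limma 3.58.1 (R 4.3.3) to the 9 alpha arrays and, apart, to the 6 a arrays, because their median replicate SD differed (0.11 to 0.13 against 0.07). Tests are two-sided, with Benjamini-Hochberg adjustment over all 5449 genes and a threshold of 0.05. The fit was tested on simulated data. The number of arrays limits the precision. Members and lists were chosen with earlier results of these data known. The text names all members, RPO21 and RPB2, up to 2 called genes of smallest p per list and comparison, and the 5 genes most like CWP1, PIR3 and HPF1. KDX1, PIR5, YOL155W-A and the other neighbours, and SLT2 and RLM1 where they were not of smallest p, were added for their position or role. CHS3, OCH1 and UPC2 were named after their values were seen. Replicates correlated at 0.987 to 0.998 across genes. Same-numbered replicates did not deviate together throughout (correlations of −0.31 to 0.50 on alpha arrays and −0.24 to −0.02 on a arrays), so numbers were not taken as pairs. The pairs of replicate 1 on alpha arrays did correlate positively, at 0.32, 0.48 and 0.37. Alternatives are given in the closing section. One further list of genes is not reported here.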

Additional observations from a re-analysis of the deposited data

Results flagged for a closer look

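Effects of the rpb1 alleles, each against WT1B, differed by limma's test for 5 of 10 members, where 48.0% of all genes were called. As rpb1-1 minus rpb1S751F on the log2 scale, the differences were 0.90 for PIR1, 0.51 for HPF1, 0.31 for HSP150, 0.17 for CCW14 and −0.29 for CIS3. PIR1 was the member of this group whose changes were called in opposite directions. The call of CCW14 was lost on leaving out any single alpha array, and that of HPF1 on leaving out some single arrays.

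Some members moved one way on all 3 rpb2-10 arrays and the other way on all 3 arrays of an rpb1 allele, each relative to its own wild-type mean, and these contrasts of direction were not tested. They were PIR3 (−3.19 in rpb2-10) and SED1 (−0.56) against both alleles, PIR1 (−1.52) and HSP150 (−1.21) against rpb1-1, CCW14 (−0.058) against both alleles, and CWP2 (−0.064) against rpb1S751F. The rpb2-10 values of CCW14 and CWP2 changed sign after centring of the arrays. The members were chosen by their expression in rpb2-10, so their direction there follows in part from the choice and is no result.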

How the results depend on the processing

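Over 18 alternatives, 7 or 8 members were called in rpb1-1 and 5 to 7 in rpb1S751F (7 and 6 as reported), and HPF1, PIR3, PIR1 and SED1 kept their calls and directions in both strains, as did CWP1 in rpb1S751F. Of the comparison between the alleles, 5 calls became 8 with a variance trend and 3 after median centring, and leaving out single arrays gave 3 to 4. CCW14 (adjusted p = 0.0872) and HPF1 (adjusted p = 0.0598) were lost by centring. The median member difference in rpb2-10 was −0.31 after centring and −0.389 to −0.355 without single arrays. Centring turned CWP2 (0.001), CCW14 (0.006) and CIS3 (0.058) in rpb2-10. With the replicate number as a block (replicate block), a pairing by number, 7, 6 and 4 members were called in rpb1-1, in rpb1S751F and between the alleles, CCW14 being lost in the last (adjusted p = 0.0652), and no other member's call changed. Wall stress calls in rpb1S751F went from 7 to 11 with array weights, whose estimation stopped before full convergence on the alpha arrays. The causes were not tested. No scanner files were used, so background correction was not varied. CCW12, SED1 and CWP2 lie near the top of the range of the alpha arrays, which limits how far a rise could be read.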

Other observations

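Among the wild-type arrays, WT1B replicate 3 was the highest for 6 members, as seen after their values were known. It lay at 12.82 for CWP1, 9.20 for PIR3, 10.84 for HPF1, 13.00 for PIR1, 14.12 for SED1 and 14.77 for CCW12, whose other WT1B arrays lay at 14.76 and 14.74. YOL155W-A and KDX1 were also highest there, at 8.83 and 9.10. HPF1 and YOL155W-A, which ran opposite between strains, were thus high on the same wild-type array. The SD over the WT1B arrays was 0.39 for HPF1, 0.37 for KDX1, 0.30 for YOL155W-A and 0.27 for CWP1.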
